A study of Mus musculus with 15 samples.

Results

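The messenger RNAs of TAZ (gene Wwtr1), of the 4 TEAD factors (Tead1, Tead2, Tead3 and Tead4) and of the cofactors Vgll3 and Vgll4 were followed in poly(A) RNA-seq of 15 libraries of cultured mouse mesenchymal cells. These 7 genes were chosen by name, as the paralog and the nuclear partners of Yap1, and all 7 of 7 were found among the 55471 genes of the deposited table. The series title places the cells in work on YAP1, on IGF-1 and on EWS::FLI1, the oncogenic fusion that drives Ewing sarcoma.

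Experiment 1 held 4 libraries labelled EFPrx1MSCLC by genotype (titles 219, 221, 225 and 229) and 3 of the label MSC (202, 234 and 237). The design text calls MSC WT, and the titles of MSC 234 and 237 add WT, whereas that of MSC 202 does not. Experiment 2 held 4 libraries of the label hr, 2 of ha and 2 of EF, which the design text calls hr-EFPrx1, ha-EFPrx1 and EFPrx1. Titles of hr add Combi and uns, and a further number splits them into uns-1 (hr libraries 1 and 2) and uns-2 (hr libraries 3 and 4). Titles of ha add Combi and T, those of EF add neither word, and all 8 titles of experiment 2 carry the number 221. The labels name the cell type MSCLCs and spell out none of these abbreviations, and the sources used here give no allele, driver of the fusion, age, dose or treatment for any group. Nothing states that libraries of a group came from separate animals or cultures, so p-values measure only how these libraries vary, which may be technical variation. If the number 221 marks an animal or a culture, all of experiment 2 comes from 1 of them. The experiments were run on different flowcells and were not tested against each other.

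TAZ, like its paralog YAP1, is a coactivator with no DNA-binding domain of its own, and it reaches its target genes by binding a TEAD factor. The kinases of the Hippo pathway phosphorylate both coactivators, which keeps them out of the nucleus and, in the case of TAZ, marks the protein for degradation. VGLL proteins bind the TEAD surface that the coactivators use. VGLL4 thereby restrains TEAD-driven transcription, whereas VGLL3 is a TEAD cofactor. In mesenchymal stem cells of the mouse, TAZ is known to assist RUNX2, the osteoblast factor, and to repress PPARG, the adipocyte factor.

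Promoters are shown for Wwtr1 and Vgll4 because both genes rose in ha, and for Vgll3 and Tead2 because their levels separated libraries of a single group. The sequences are from RefSeq on GRCm38.p6 and hold the 250 bases before an annotated start, written 5′ to 3′ on the gene's strand. Capitals mark the TEAD motif GGAATG or its reverse complement CATTCC.
Wwtr1, chr3:57575911-57576160, minus strand: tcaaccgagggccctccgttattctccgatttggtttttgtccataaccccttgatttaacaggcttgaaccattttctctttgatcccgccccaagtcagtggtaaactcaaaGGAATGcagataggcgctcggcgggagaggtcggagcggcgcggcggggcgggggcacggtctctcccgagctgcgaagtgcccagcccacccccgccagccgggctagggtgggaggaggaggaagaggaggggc
Vgll3, chr16:65814939-65815188, plus strand: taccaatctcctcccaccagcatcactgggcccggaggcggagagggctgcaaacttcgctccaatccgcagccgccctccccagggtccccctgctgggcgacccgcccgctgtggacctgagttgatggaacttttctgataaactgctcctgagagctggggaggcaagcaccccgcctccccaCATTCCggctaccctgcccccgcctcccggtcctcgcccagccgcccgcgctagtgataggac
Vgll4, chr6:114969204-114969453, minus strand: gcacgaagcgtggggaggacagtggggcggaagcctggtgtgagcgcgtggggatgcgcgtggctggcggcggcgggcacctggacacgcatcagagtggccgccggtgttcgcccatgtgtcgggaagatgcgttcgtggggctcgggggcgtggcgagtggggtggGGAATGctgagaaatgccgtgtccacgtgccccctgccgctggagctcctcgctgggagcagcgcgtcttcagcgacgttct
Tead2, chr7:45215542-45215791, plus strand: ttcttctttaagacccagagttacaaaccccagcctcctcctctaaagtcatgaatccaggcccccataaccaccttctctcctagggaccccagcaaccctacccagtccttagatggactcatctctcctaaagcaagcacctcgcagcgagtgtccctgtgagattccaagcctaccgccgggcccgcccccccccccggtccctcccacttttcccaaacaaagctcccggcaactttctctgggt
The motif began 136 bases before the start of Wwtr1, 63 bases before that of Vgll3 and 82 bases before that of Vgll4, and the Tead2 window held none. Tead1 and Tead4 have no window in the table used, and 5 of the 7 genes have at least 1. Of their 8 windows, 6 held the motif on either strand, against 12.6% of all 32851 promoter windows in the table. A match is a description of these letters and not a site, and several of the windows of Wwtr1 and Tead3 overlap or adjoin each other. GC content was 61.6% in the Wwtr1 window, 66.8% in that of Vgll3, 69.6% in that of Vgll4 and 57.2% in that of Tead2, with a median of 52.4% over all windows.

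Library totals were 14906180 to 26833876 counts in experiment 1 and 11195371 to 16378368 in experiment 2. The EF libraries differed from each other by 1.35 times what counting noise alone gives, as a median over genes of the squared difference, and both hr pairs by 1.29 times. The ha libraries differed by 21.6 times, and hr libraries of different title numbers by 16.3 to 17.9 times. In experiment 1, MSC 202 differed from MSC 234 by 124 times and from MSC 237 by 87.3 times, and MSC 234 from MSC 237 by 12.4 times. EFPrx1MSCLC 221 and 229 differed by 7.62 times, and all other pairs of that group by 48.9 to 98 times. All 14 mesenchymal markers had counts in all 15 libraries, with summed levels of 7669 to 15960 CPM (counts scaled by the library total) in EFPrx1MSCLC and 19270 to 24860 CPM in MSC, and of 13910 to 16770 CPM in hr, 21860 to 22840 CPM in ha and 15810 to 15870 CPM in EF. Cdh11, the mesenchymal cadherin, was under 1 CPM in every hr and EF library and at 91.9 and 251 CPM in ha, whereas Vim, which encodes vimentin, was at 4046 to 5670 CPM in hr, 1839 and 2193 CPM in ha, and 4657 and 4618 CPM in EF. The 14 hematopoietic and macrophage markers summed to 66.9 to 475 CPM in EFPrx1MSCLC and 10960 to 30300 CPM in MSC. Adgre1, which encodes the macrophage antigen F4/80, was at most 4.26 CPM in EFPrx1MSCLC and 165 to 229.5 CPM in MSC, and had 0 counts throughout experiment 2. The 11 epithelial markers summed to 0.197 to 8.09 CPM in EFPrx1MSCLC and 16.6 to 35.8 CPM in MSC, and to 40.1 to 54.1 CPM in hr, 1.119 and 0.794 CPM in ha, and 16.5 and 14.3 CPM in EF.

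Levels of the 7 genes below are CPM after TMM scaling, which corrects library totals for differences in composition. A gene is said to have risen or fallen where the adjusted p of edgeR's quasi-likelihood test, corrected over all genes tested, was under 0.05. In EFPrx1MSCLC against MSC, 2 of the 7 genes were higher and none lower, where 19.8% of 14596 tested genes were called, 7.70% higher and 12.1% lower. In ha against EF, 2 were higher and 1 lower, where 42.6% of 13998 genes were called, 23.0% higher and 19.6% lower. In hr against EF, none of the 7 was called, where 6.95% of genes were, 3.88% higher and 3.07% lower; 1 of the 7 had an unadjusted p under 0.05 in edgeR, and DESeq2 and limma-voom called none. In hr against ha, 1 was higher and 2 were lower, where 39.4% of genes were called, 17.9% higher and 21.5% lower. The share called among the 7 thus lay near the share of all genes in both comparisons with ha, and these counts are no result about the 7 genes as a group. The comparisons of experiment 2 share libraries with each other. Counting each close pair of EF and hr libraries as 1 sample ended every call of the 7 genes in experiment 2, with edgeR adjusted p in ha against EF of 0.194 for Wwtr1, 0.0794 for Tead4 and 0.158 for Vgll4, and in hr against ha of 0.256 for Wwtr1, 0.215 for Tead3 and 0.0563 for Tead4.

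**Figure D1:**
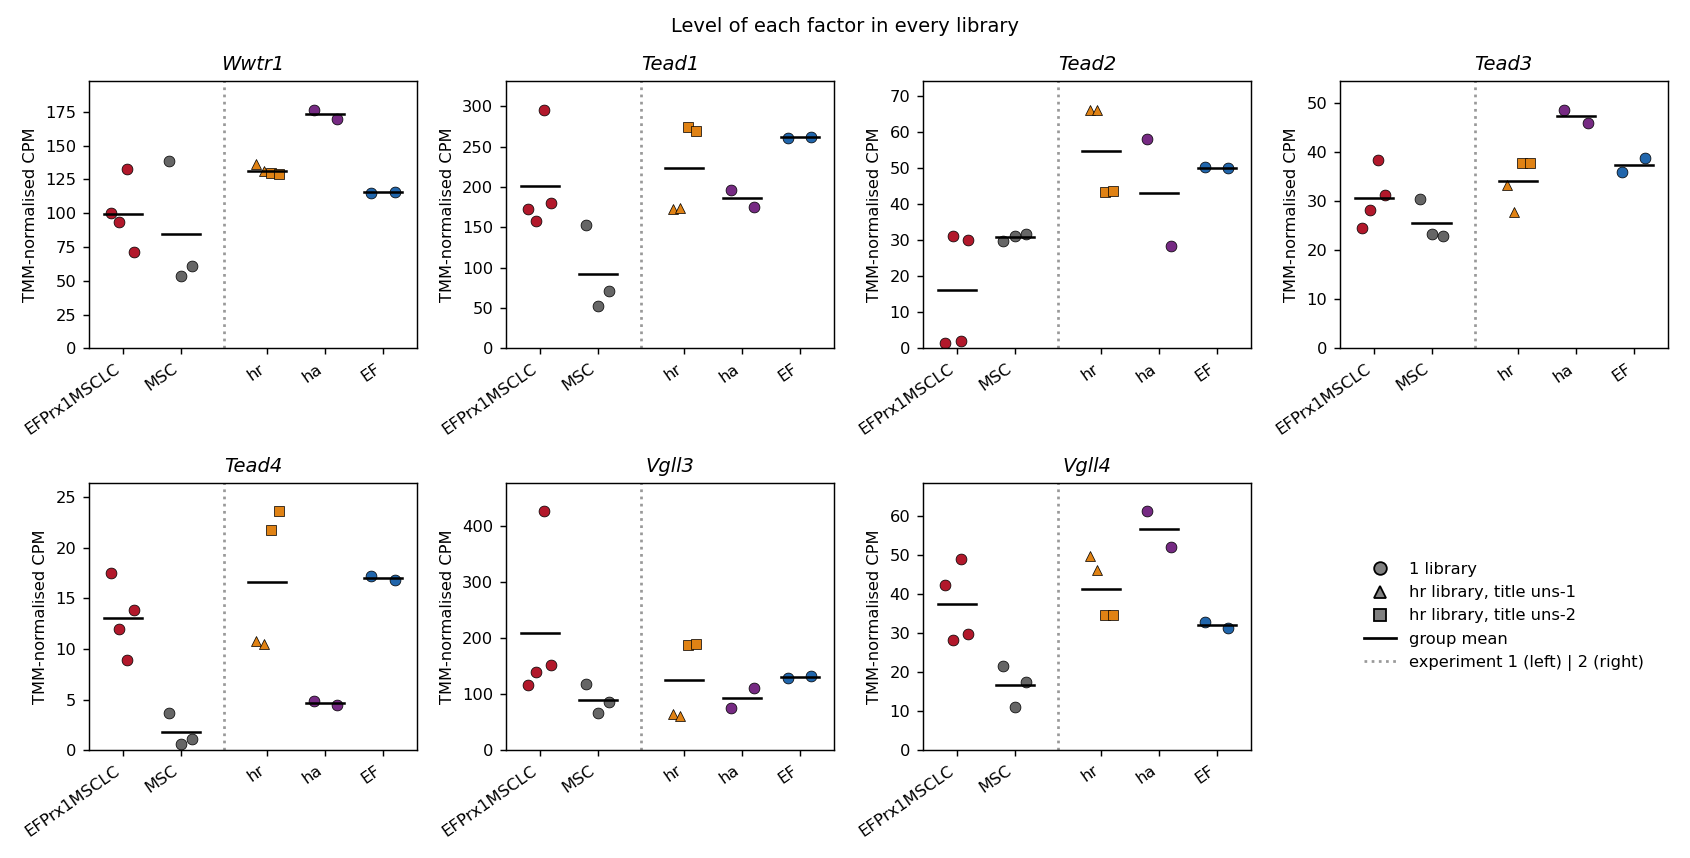
Level of each gene (vertical axes, TMM-normalised CPM) in every library of the 5 groups, with experiment 1 left and experiment 2 right of the dotted line. Points are libraries and bars are group means; Tead2 is at 1.54 and 1.92 CPM in EFPrx1MSCLC libraries 219 and 225, and Tead4 is at 4.41 and 4.82 CPM in ha, under every hr and EF library.

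Tead4, a TEAD factor known in the mouse for its role in the trophectoderm, showed the largest called fold changes of the 7 genes. In experiment 1 its level was 17.5, 12.0, 8.89 and 13.9 CPM in EFPrx1MSCLC libraries 219, 221, 225 and 229, against 3.68, 0.604 and 1.08 CPM in MSC libraries 202, 234 and 237. Every EFPrx1MSCLC library lay above every MSC library, and the MSC values rest on 82, 8 and 15 counts. The mean was 13.1 ± 3.59 CPM in EFPrx1MSCLC (SD, n = 4) and 1.79 ± 1.66 CPM in MSC (SD, n = 3), a log2 fold change of 2.84 ± 0.67 (SE; 7.18-fold; edgeR adjusted p = 0.0254). That call was lost without EFPrx1MSCLC 229 (edgeR adjusted p = 0.057), without MSC 234 (0.0652) and without MSC 237 (0.106), and held in 4 of 7 such fits. With presence of the Y-linked gene Ddx3y, above 1 CPM in MSC 202 and 234 only, as a covariate, the log2 fold change was 3.59. That covariate leaves MSC 237 alone to set the level of MSC, so this fit cannot show whether the call holds. In these bulk samples, fewer cells of a type and less RNA per cell cannot be told apart. The summed macrophage markers given above move with this comparison, and their part in it was not tested.

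In experiment 2 Tead4 stood at 10.8, 10.5, 21.7 and 23.6 CPM in hr libraries 1 to 4, at 4.82 and 4.41 CPM in ha, and at 17.2 and 16.8 CPM in EF. Both ha libraries lay under all others of the experiment, and the hr libraries lay on either side of EF. Means were 16.6 ± 6.997 CPM in hr (SD, n = 4), 4.62 ± 0.290 CPM in ha and 17.0 ± 0.258 CPM in EF (SD, n = 2 each). Tead4 fell in ha against EF (log2 fold change -1.88 ± 0.43, SE; edgeR adjusted p = 0.0111). It was 3.6-fold higher in hr than in ha (log2 fold change 1.85 ± 0.40, SE; edgeR adjusted p = 0.00914). Against EF, hr differed by a log2 fold change of -0.03 ± 0.36 (SE; edgeR adjusted p = 0.971). Without ha library 2 the calls of ha against EF and of hr against ha were lost (edgeR adjusted p = 0.0583 and 0.0592), and without EF library 1 that of ha against EF (0.0515). The summed epithelial markers given above were also lowest in ha, and their part in these differences was not tested.

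Tead1, a widely expressed TEAD factor, was not called in any comparison. Per length of exon it had the highest mean of the TEAD genes in all 5 groups. In MSC that rank rests on library 202, since Tead1 was at 3.90 and 5.21 CPM per kb in libraries 234 and 237 and Tead2 at 6.52 and 6.65. In hr it rests on the uns-2 libraries, since in both uns-1 libraries Tead2 was at 13.8 CPM per kb and Tead1 at 12.8. Tead1 stood at 173, 158, 296 and 180 CPM in the EFPrx1MSCLC libraries, against 153, 53.0 and 70.8 CPM in the MSC libraries, given in the order above. The groups did not overlap, although MSC 202 came close to EFPrx1MSCLC 221. The log2 fold change was 1.13 ± 0.43 (SE; edgeR adjusted p = 0.104), and it passed without MSC 202 (1.71, edgeR adjusted p = 0.0142) and by DESeq2's Wald test (adjusted p = 0.0468). In experiment 2 Tead1 was at 173, 174, 275 and 270 CPM in hr, 196 and 176 CPM in ha, and 261 and 262 CPM in EF. Both ha libraries and both uns-1 libraries of hr lay under EF, and the uns-2 libraries lay above it. Log2 fold changes were -0.49 ± 0.25 in ha against EF (SE; edgeR adjusted p = 0.156), -0.23 ± 0.22 in hr against EF (0.549) and 0.26 ± 0.22 in hr against ha (0.378).

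Tead2, whose product is prominent in the mouse embryo, split the EFPrx1MSCLC group. Its level was 1.54 and 1.92 CPM in libraries 219 and 225 and 31.1 and 30.1 CPM in libraries 221 and 229, against 29.9, 31.2 and 31.8 CPM in MSC. Libraries 221 and 229 lay within the range of MSC, and libraries 219 and 225 had 30 counts each. With this spread the mean of 16.2 ± 16.7 CPM in EFPrx1MSCLC (SD, n = 4), against 30.97 ± 1.01 CPM in MSC (SD, n = 3), gave no call (log2 fold change -0.94 ± 1.01, SE; edgeR adjusted p = 0.53). Cd37, a leukocyte gene on the opposite strand that shares 13 exonic bases with Tead2, was at 0.0640 to 0.972 CPM in EFPrx1MSCLC and 32.0 to 69.1 CPM in MSC. The sources used here do not say whether counting used the strand, and the part of Cd37 in the MSC values was not tested.

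The ha libraries of experiment 2 also stood apart from each other in Tead2. The gene was at 66.2, 66.1, 43.4 and 43.7 CPM in hr, at 58.0 and 28.5 CPM in ha, and at 50.3 and 49.9 CPM in EF. The uns-1 libraries of hr were above EF and the uns-2 libraries below it. No comparison was called, with edgeR adjusted p of 0.65 in ha against EF, 0.832 in hr against EF and 0.398 in hr against ha.

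Tead3, the remaining TEAD gene, varied least among the 4 across experiment 1. It stood at 24.5, 28.3, 38.5 and 31.4 CPM in EFPrx1MSCLC and at 30.4, 23.3 and 22.9 CPM in MSC, and the groups overlapped (log2 fold change 0.26 ± 0.24, SE; edgeR adjusted p = 0.461). In experiment 2 it was at 33.4, 27.9, 37.8 and 37.7 CPM in hr, at 48.7 and 46.0 CPM in ha, and at 35.9 and 38.8 CPM in EF. Both ha libraries exceeded all others. Tead3 was lower in hr than in ha (log2 fold change -0.47 ± 0.14, SE; edgeR adjusted p = 0.0289), the opposite direction to Tead4 in the same comparison. That call is a weak one, lost when any of hr 1, ha 1, ha 2, EF 1 or EF 2 was left out (edgeR adjusted p of 0.0563 to 0.112) and when only hr and ha were fitted (0.0529). In ha against EF the log2 fold change was 0.34 ± 0.16 (SE; edgeR adjusted p = 0.121), and in hr against EF it was -0.13 ± 0.14 (0.61).

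Tead3 and Tead4 share a stretch of coding sequence, and a read lying wholly inside it could not be assigned to either gene alone. Read length was not examined here. The stretch is shown because the values of these genes are set against each other. It is 59 bases long and lies inside the coding part of 4 of 4 coding transcripts of Tead3 and 3 of 3 of Tead4 that hold it.
Tead3 and Tead4, shared coding run: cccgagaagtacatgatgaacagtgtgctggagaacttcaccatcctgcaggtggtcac
All 29 of the 31-base words that Tead4 shares with any other gene are shared with Tead3, and they make up 0.796% of its words. For the other members the share was between 0 for Vgll4 and 1.02% for Tead3.

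Scaled per kilobase of exon, a scale on which genes can be set beside each other, the 4 TEAD genes together came to 26.4 ± 3.77 CPM per kb in EFPrx1MSCLC (SD, n = 4) and 17.6 ± 4.82 CPM per kb in MSC (SD, n = 3). The make-up of that sum differed more than the sum itself. Tead4 made up 8.13% to 22.5% of it in EFPrx1MSCLC and 1.20% to 4.44% in MSC. Tead2 made up 1.48% and 1.32% in EFPrx1MSCLC libraries 219 and 225, 25.3% and 22.4% in libraries 221 and 229, and 27.1% to 46.4% in MSC. Tead1 held 45.3% to 71.7% in EFPrx1MSCLC and 27.8% to 48.9% in MSC. In experiment 2 the share of Tead4 was 8.63% to 15.9% in hr, 3.81% and 4.55% in ha, and 12.0% and 11.6% in EF. Tead3 made up 12.3% to 14.4% in hr, 20.6% and 25.4% in ha, and 13.4% and 14.4% in EF. The shares of Tead3 and Tead4 did not overlap between hr and ha, nor between ha and EF. With the longest transcript as the length, the mean share of Tead4 was 11.7% in EFPrx1MSCLC and 1.97% in MSC, and 9.80% in hr, 3.25% in ha and 9.63% in EF. These shares were described and not tested.

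**Figure D2:**
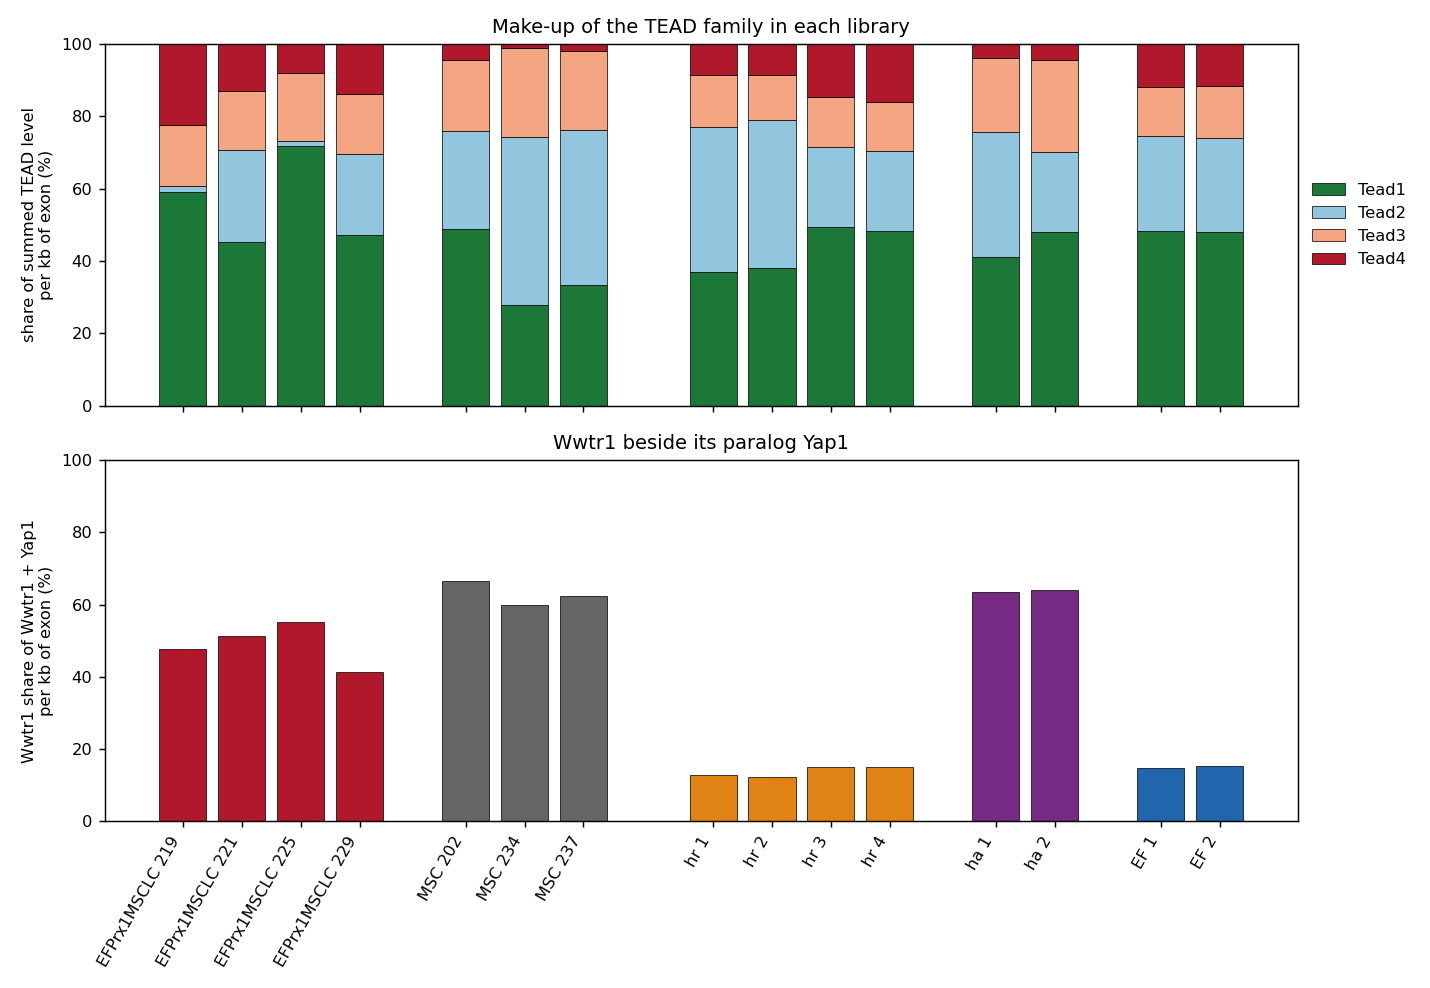
Upper panel: share of each TEAD gene in the summed TEAD level per kb of exon (%), 1 stacked bar per library. Lower panel: share of Wwtr1 in Wwtr1 plus Yap1 per kb of exon (%), which is 41.5% to 55.3% in EFPrx1MSCLC, 59.8% to 66.4% in MSC, 12.3% to 15.0% in hr, 63.6% and 64.0% in ha, and 14.9% and 15.2% in EF.

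Wwtr1, the TAZ gene, was called in both comparisons with ha and was not called in experiment 1. In experiment 1 it stood at 100.1, 93.4, 132.5 and 71.1 CPM in EFPrx1MSCLC and at 138, 53.5 and 61.3 CPM in MSC, and the groups overlapped (log2 fold change 0.23 ± 0.39, SE; edgeR adjusted p = 0.695). MSC 202 was the highest of all 7 libraries. In experiment 2 Wwtr1 was at 136, 131, 130.1 and 129 CPM in hr, at 177 and 169.6 CPM in ha, and at 115.1 and 115.7 CPM in EF. The 3 groups did not overlap, and ha was highest and EF lowest. Means were 131.5 ± 3.26 CPM in hr (SD, n = 4), 173 ± 4.94 CPM in ha and 115.4 ± 0.427 CPM in EF (SD, n = 2 each). Wwtr1 rose 1.5-fold in ha against EF (log2 fold change 0.59 ± 0.09, SE; edgeR adjusted p = 0.00245) and was lower in hr than in ha (-0.40 ± 0.08, SE; edgeR adjusted p = 0.00632). Both calls held in 8 of 8 fits that left out 1 library, and the second was lost with no filter on low counts (edgeR adjusted p = 0.0538). Between hr and EF the log2 fold change of 0.19 ± 0.08 (SE) was not called (edgeR adjusted p = 0.187).

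Yap1, the paralog of Wwtr1, moved the other way in ha. It stood at 1804, 1805, 1425 and 1410 CPM in hr, at 196 and 185 CPM in ha, and at 1274 and 1247 CPM in EF. Yap1 fell in ha against EF (log2 fold change -2.73 ± 0.18, SE; edgeR adjusted p = 0.000122), beside the change of 0.59 in Wwtr1. Per kb of exon, Wwtr1 made up a mean of 13.8% of the 2 coactivator messengers in hr, 63.8% in ha and 15.1% in EF. In experiment 1 Yap1 was at 212.5, 172, 207 and 194 CPM in EFPrx1MSCLC, against 136, 69.7 and 72.0 CPM in MSC, and rose (log2 fold change 1.09 ± 0.30, SE; edgeR adjusted p = 0.0429). That call lay close to the threshold, and the alternative settings were not read out for Yap1. The summed macrophage markers also move with this comparison, and their part in it was not tested. The Wwtr1 share in experiment 1 was 48.9% in EFPrx1MSCLC and 62.8% in MSC as means, with no overlap between the groups. With the longest transcript as the length the mean shares were 35.9% and 49.6%, and in experiment 2 they were 8.50% in hr, 50.5% in ha and 9.33% in EF.

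Vgll4, which restrains TEAD-driven transcription, was higher in EFPrx1MSCLC than in MSC and higher in ha than in EF. Its level in experiment 1 was 42.2, 28.3, 49.1 and 29.7 CPM in EFPrx1MSCLC, against 21.6, 11.03 and 17.4 CPM in MSC. The groups did not overlap, with means of 37.3 ± 10.1 CPM in EFPrx1MSCLC (SD, n = 4) and 16.7 ± 5.33 CPM in MSC (SD, n = 3). The log2 fold change of 1.16 ± 0.33 (SE; 2.23-fold; edgeR adjusted p = 0.0461) lay close to the threshold. It stayed past it in 1 of the 7 fits that left out a library, the one without MSC 202. In the others the edgeR adjusted p was 0.0651 to 0.146. The summed macrophage markers also move with EFPrx1MSCLC against MSC, and their part in the Vgll4 values was not tested. In experiment 2 Vgll4 stood at 49.7, 46.1, 34.7 and 34.5 CPM in hr, at 61.2 and 52.1 CPM in ha, and at 32.8 and 31.2 CPM in EF. All hr and ha libraries were above both EF libraries, and ha was above hr. The rise in ha against EF was 1.77-fold (log2 fold change 0.82 ± 0.20, SE; edgeR adjusted p = 0.0144), and it was lost without ha 1 (0.0655), EF 1 (0.0731) or EF 2 (0.0924). Neither hr against EF (log2 fold change 0.37 ± 0.18, SE; edgeR adjusted p = 0.242) nor hr against ha (-0.46 ± 0.17, SE; edgeR adjusted p = 0.068) was called.

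Vgll3, the other VGLL gene with a clear signal, had the widest range of the 7 in CPM and was called in none of the 4 comparisons with all libraries. In experiment 1 it stood at 115, 139, 425 and 152 CPM in EFPrx1MSCLC and at 117, 67.0 and 86.0 CPM in MSC. EFPrx1MSCLC 225 lay far above the others, and EFPrx1MSCLC 219 lay under MSC 202 (log2 fold change 1.21 ± 0.51, SE; edgeR adjusted p = 0.134). In experiment 2 the levels were 63.8, 60.8, 187.5 and 189 CPM in hr, 75.9 and 110.4 CPM in ha, and 129 and 132 CPM in EF. The spread within hr exceeded the differences between group means, which were 125 ± 72.7 CPM in hr (SD, n = 4), 93.2 ± 24.4 CPM in ha and 131 ± 2.21 CPM in EF (SD, n = 2 each). The edgeR adjusted p was 0.538 in ha against EF, 0.96 in hr against EF and 0.538 in hr against ha. Of the remaining family genes, Vgll1 had 1 count in 1 library, and Vgll2 had 0 counts in all 15 libraries, which allows up to 0.112 to 0.268 CPM depending on the library (3 counts of the total, covering counting error only).

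**Figure D3:**
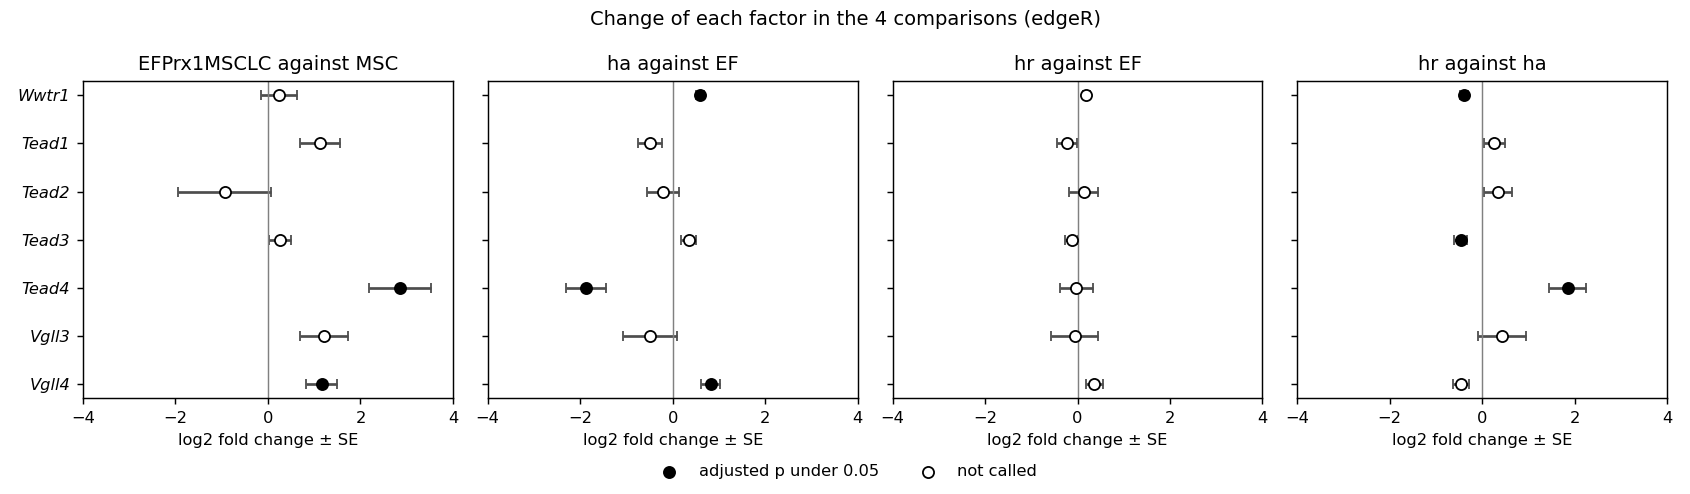
Log2 fold change ± SE of each gene (horizontal axes) in the 4 comparisons, from edgeR. Filled points passed an adjusted p of 0.05, and the widest of the called changes is that of Tead4 in EFPrx1MSCLC against MSC, at 2.84 ± 0.67.

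Per kb of exon, counting every annotated exon base, Wwtr1 or Vgll3 had the highest mean of the 7 genes in every group. Vgll3 led in EFPrx1MSCLC at 29.3 ± 20.5 CPM per kb, followed by Wwtr1 at 20.8 ± 5.31 and Tead1 at 14.9 ± 4.68 CPM per kb (SD, n = 4). Vgll3 was above Wwtr1 in libraries 225 and 229, level with it in 221 and under it in 219. Wwtr1 was above Tead1 in every EFPrx1MSCLC library. With the longest transcript as the length, Tead1 was above Wwtr1 in libraries 225 and 229. In MSC the order was Wwtr1 at 17.7 ± 9.82, Vgll3 at 12.7 ± 3.56 and Tead1 at 6.80 ± 3.94 CPM per kb (SD, n = 3). Every MSC library had that order, although the levels overlapped between libraries. In hr it was Wwtr1 at 27.5 ± 0.681, Vgll3 at 17.6 ± 10.2 and Tead1 at 16.4 ± 4.21 CPM per kb (SD, n = 4), and Vgll3 and Tead1 did not differ beyond their spread. In the uns-1 libraries of hr Vgll3, at 8.98 and 8.56 CPM per kb, lay under Tead1, at 12.8 in both. Wwtr1 also led in ha, at 36.2 ± 1.03 CPM per kb, and in EF, at 24.2 ± 0.0849 CPM per kb (SD, n = 2 each). The lead in EF depends on the length used: with the longest transcript, Tead1 was first there at 26.3 CPM per kb and Wwtr1 second at 24.6, and in hr Tead1, at 22.4 CPM per kb, was above Vgll3, at 17.9. Tead4 was the lowest in MSC, hr, ha and EF, and Tead2 was the lowest in EFPrx1MSCLC, at 3.38 ± 3.48 CPM per kb beside 3.63 ± 0.998 for Tead4 (SD, n = 4). In hr, Tead4 at 4.63 ± 1.95 and Tead3 at 5.09 ± 0.699 CPM per kb did not differ beyond their spread either.

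The hr group consisted of pairs of libraries that differed from each other in 4 of the 7 genes by direction against EF, as did 14.5% of the 13998 genes tested. Vgll3 averaged 62.3 CPM in uns-1 and 188 CPM in uns-2, against 131 CPM in EF. Tead4 averaged 10.6 CPM in uns-1 and 22.7 CPM in uns-2, against 17.0 CPM in EF. Tead1 averaged 174 CPM in uns-1 and 272.5 CPM in uns-2, against 262 CPM in EF, so that for these 3 genes uns-1 lay below and uns-2 above EF. Tead2 ran the other way, with 66.1 CPM in uns-1 and 43.6 CPM in uns-2, against 50.1 CPM in EF. Wwtr1 was alike in both, at 134 CPM in uns-1 and 129 CPM in uns-2, both above the 115.4 CPM of EF. Libraries of a pair differed by little more than counting noise, so the difference between uns-1 and uns-2 was not tested.

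**Figure D4:**
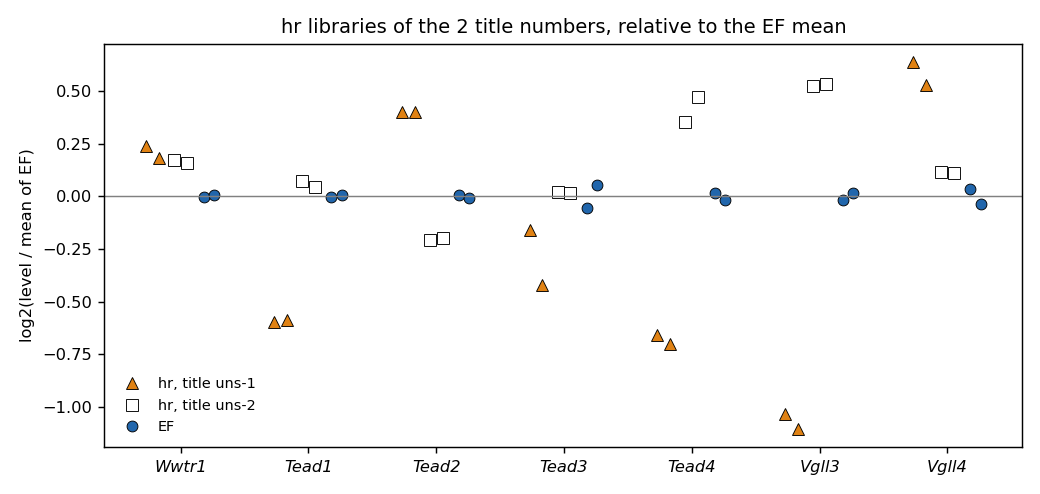
Level of each gene in the hr libraries of title uns-1 (filled triangles) and uns-2 (open squares) and in EF (circles), as log2 of the level over the EF mean (vertical axis). Tead1, Tead4 and Vgll3 lie below EF in uns-1 and above it in uns-2, and Tead2 does the reverse.

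Genes around the 7 factors were read from lists of known pathway members, all of which passed the filter on low counts. In EFPrx1MSCLC against MSC, 3 of the 15 partner factors of TAZ and TEAD rose and 1 fell, with a median log2 fold change of 0.38 beside 0.04 over all genes tested. Of all genes 19.8% were called there, 7.70% higher and 12.1% lower. Runx2, the osteoblast factor that TAZ assists, averaged 45.9 CPM in EFPrx1MSCLC and 14.5 CPM in MSC and rose (log2 fold change 1.66 ± 0.34, SE; edgeR adjusted p = 0.0155). Smad3, a TGF-beta signal transducer, also rose (2.04 ± 0.50, SE; edgeR adjusted p = 0.03), whereas Junb, an AP-1 subunit, fell (-2.97 ± 0.64, SE; edgeR adjusted p = 0.0187). Pparg was low in both groups, at 2.56 CPM in EFPrx1MSCLC and 1.92 CPM in MSC (edgeR adjusted p = 0.838). Of 8 genes of TAZ turnover, 2 rose and none fell, with a median of 0.65. Both were the paralogous subunits of the ubiquitin ligase that recognises phosphorylated TAZ, Btrc (log2 fold change 0.94 ± 0.24, SE; edgeR adjusted p = 0.0335) and Fbxw11 (0.99 ± 0.29, SE; edgeR adjusted p = 0.0494). The call of Fbxw11 lay close to the threshold, and the alternative settings were not read out for single genes of the lists. Of the 16 genes on the Hippo core and restrainer list 5 rose and none fell (median 0.96). The lowest p was that of Ajuba, an adaptor that binds LATS kinases (2.60 ± 0.24, SE, edgeR adjusted p = 0.00134). A place on this list does not say in which direction a product acts on TAZ. Of 22 YAP1/TAZ-TEAD targets 6 rose and 2 fell (median 1.08). The summed macrophage markers also move with EFPrx1MSCLC against MSC, and their part in these medians and single genes was not tested.

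Of the 15 partner factors, 8 were higher and 2 lower in ha against EF, with a median log2 fold change of 0.45 beside 0.05 over all genes, where 42.6% of all genes were called. In hr against ha 2 were higher and 7 lower (median -0.63 beside -0.004), where 39.4% of all genes were called. Zeb1, a factor of the mesenchymal state that cooperates with YAP1 and AP-1, averaged 55.0 CPM in hr, 147 CPM in ha and 41.2 CPM in EF. It rose in ha against EF (1.83 ± 0.13, SE; edgeR adjusted p = 0.000147) and was lower in hr than in ha (-1.42 ± 0.10, SE; edgeR adjusted p = 0.00011). Runx1 ran the other way, at 54.4 CPM in hr, 29.6 CPM in ha and 54.5 CPM in EF, and fell in ha (-0.88 ± 0.10, SE; edgeR adjusted p = 0.000737). In the turnover list 3 of 8 genes were lower in ha than in EF and none higher (median -0.16), and all 3 encode 14-3-3 proteins, which hold phosphorylated TAZ in the cytoplasm. The strongest was Ywhae, at 872 CPM in hr, 501 CPM in ha and 894 CPM in EF, which fell in ha against EF (-0.83 ± 0.13, SE; edgeR adjusted p = 0.00237) and was higher in hr than in ha (0.80 ± 0.12, SE; edgeR adjusted p = 0.00176).

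Of the 22 targets, 6 were higher and 2 lower in ha than in EF (median 0.12), where 42.6% of all genes were called, and 3 were higher and 6 lower in hr than in ha (median -0.07), where 39.4% were. Rbms3, an RNA-binding protein gene, averaged 10.1 CPM in hr, 58.9 CPM in ha and 5.40 CPM in EF (ha against EF, log2 fold change 3.44 ± 0.17, SE; edgeR adjusted p = 3.31e-05). Of the Hippo core and restrainer genes, 1 was higher and 4 lower in ha than in EF (median -0.10), and 2 were higher and 2 lower in hr than in ha (median 0.09). Wwc1, which encodes the Hippo activator KIBRA, averaged 103 CPM in hr, 16.3 CPM in ha and 111 CPM in EF and fell in ha against EF (-2.77 ± 0.36, SE; edgeR adjusted p = 0.00108). In hr against EF, where 6.95% of all genes were called, 3 targets were higher and 1 lower (median 0.01), 2 of the Hippo genes were lower (median -0.07), 1 partner factor was higher and 1 lower (median 0.07), and none of the turnover genes was called. Runx2, at 43.2 CPM in hr and 71.3 CPM in EF, was the partner factor that was lower (-0.72 ± 0.10, SE; edgeR adjusted p = 0.0126). Every call in hr against EF, that of Runx2 included, was lost without EF 1, without EF 2, and with close pairs counted as 1 sample, where 0 genes were called. The genes Lats2, Ptpn14 and Amotl2 stand on both the target list and the Hippo list.

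For each of the 7 genes, the genes of most similar pattern were found by Pearson's r of log2 CPM over the 15 libraries with the mean of each experiment taken off. Values are descriptions, with no test, and both values of a point come from the same library. Each like gene was picked by r from 8830 or 8831 genes, so that its levels follow those of the member is a product of the choice. Tead4 was most like Crk, an adaptor protein gene (r = 0.977), and Itga3, an integrin alpha subunit gene (r = 0.976). Itga3 stood at 242, 103, 58.0 and 130 CPM in EFPrx1MSCLC, against 9.03, 2.04 and 2.95 CPM in MSC, and at 129, 123.5, 175 and 175 CPM in hr, 25.4 and 22.9 CPM in ha, and 169 and 170.2 CPM in EF. Itga3 was thus low in MSC and ha, where Tead4, by which it was picked, was also low. Vgll3 was most like Sh3bp5l (r = 0.937) and Csf1, the macrophage growth factor (r = 0.933). Csf1 was at 3234 CPM in EFPrx1MSCLC 225, the library of highest Vgll3, and at 418 to 848 CPM in the other 3 EFPrx1MSCLC libraries, against 391 to 1119 CPM in MSC. It stood at 287 and 290.5 CPM in uns-1 and 983 and 982.5 CPM in uns-2, against 640.2 and 673 CPM in EF, which is the order Vgll3 had. Tead2 was most like Cspg4, the NG2 proteoglycan of pericytes (r = 0.952), and the noncoding RNA Snhg18 (r = 0.934). That likeness came from experiment 1, where r for Cspg4 was 0.977 over 7 libraries, against 0.457 over the 8 of experiment 2. Cspg4 was at 1.18 and 5.50 CPM in EFPrx1MSCLC libraries 219 and 225 and at 137 and 128 CPM in libraries 221 and 229, against 82.2 to 99.0 CPM in MSC. The nearest patterns to the other members were Btbd7 and Mbtd1 for Wwtr1 (r = 0.949 and 0.946), Dhx33 and Gcn1l1 for Tead1 (0.972 and 0.971), Adamts1 and Slit2 for Tead3 (0.911 and 0.892), and R3hdm2 and Ube2h for Vgll4 (0.973 and 0.963).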

How the data were processed

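Poly(A) RNA of 15 libraries was sequenced, 7 in experiment 1 and 8 in experiment 2. The authors deposited expected counts per gene, made with STAR and RSEM on GRCm38.p6 per the submitters' processing notes, with no version given there. The sources used here name neither the annotation release nor whether strand was used. RSEM divides reads among similar genes. Identifiers were matched to GENCODE M21, where 55144 of 55471 had a symbol. Expected counts were rounded (8.27% were not whole). Per experiment, genes were filtered with edgeR's filterByExpr (minimum count 10), scaled by TMM and compared with edgeR's quasi-likelihood test, two-sided, with Benjamini-Hochberg adjustment over all genes tested and a threshold of 0.05. SE comes from the F statistic. Versions were edgeR 4.0.16, DESeq2 1.42.0 and limma 3.58.1 under R 4.3.3, and the fits were tested on simulated data. The close pairs of libraries differed by more than counting noise and were kept as separate libraries. Named genes were the 7 members, Yap1, Vgll1 and Vgll2. For each member the 2 genes of highest r with at least 10 CPM in each experiment were added. List genes were taken from the 3 called genes of lowest p-value per list and comparison, and not all of these were printed. Pparg, Cspg4's level, Cd37 and the marker genes printed were chosen after their values were seen. The members and lists were chosen with earlier results of these data known. Alternatives were DESeq2 size factors, no filter, a stricter filter (5 CPM), limma-voom, the Wald test of DESeq2, leaving out each library, a Y-linked covariate, a replicate block, fits of 2 groups, close pairs summed and, chosen after seeing the data, library totals and hr without uns-1 or uns-2.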

Additional observations from a re-analysis of the deposited data

Results flagged for a closer look

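In groups of 4 libraries, the highest or lowest value was looked at for a gap to its neighbour that takes up most of the group's range. Of 28 such values, which include sums and shares of the same genes, 2 stood apart. No chance rate is set beside them, because the near-identical pairs of hr leave little room for such a gap. The 2 values were both in EFPrx1MSCLC 225, where Tead1 was at 296 CPM and Vgll3 at 425 CPM, with the gap making up 0.839 and 0.881 of the group's range. That library also had the highest mitochondrial share of its group, at 8.43% beside 4.06% to 5.77%, whose part in these values was not tested.

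In hr, libraries of the titles uns-1 and uns-2 lay on opposite sides of EF for 4 genes of the 7, as for 14.5% of all genes tested. The log2 ratio of uns-1 over uns-2 was -0.65 for Tead1, 0.60 for Tead2, -1.09 for Tead4 and -1.60 for Vgll3. This difference was not tested, because each title number holds a pair of near-identical libraries.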

How the results depend on the processing

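Of the fits that left out 1 library, 188 results for single genes kept direction and side of the threshold, 20 lost a call, 2 gained one and 7 changed sign; under the other settings these numbers were 238, 12, 9 and 7. For EFPrx1MSCLC against MSC, 1 of the 7 genes was called with no filter and 1 with the stricter filter, and 0 with presence of the Y-linked gene Ddx3y as a covariate, where Tead4 had a log2 fold change of 3.59 (edgeR adjusted p = 0.168) and Vgll4 of 1.10 (0.317). Ddx3y was at most 0.0656 CPM in EFPrx1MSCLC, and at 87.4, 43.1 and 0.134 CPM in MSC 202, 234 and 237. Genes called in that comparison numbered 2887, against 4598 by DESeq2's Wald test and 518 with the covariate. Library totals in place of TMM put the median of all genes at 0.30 instead of 0.04 (log2) and left 2 of the 7 called. Summing each close pair of libraries, which leaves few degrees of freedom, ended every call of the 7 genes in experiment 2 (0 of 7 in each comparison), with 736 genes called in ha against EF, 0 in hr against EF and 1272 in hr against ha. In hr against EF, 973 genes were called, against 1973 by DESeq2's Wald test, 1927 in the fit of these 2 groups alone, 2074 without uns-1 and 2221 without uns-2. Members called there were 4 without uns-2. In hr against ha, 6 members were called without uns-1, where 39.4% of all genes were called with all libraries. The share of all genes in that fit is not given here, so the 6 are no result about the 7 genes as a group. Against EF, the fits without uns-1 or uns-2 set 1 near-identical pair against another, so these calls rest on pairs that may be repeat libraries. In ha against EF, a fit of these 2 groups called Tead1 as lower (-0.51, edgeR adjusted p = 0.0272).

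Leaving out each library gave 1219 to 5087 genes and 0 to 3 of the 7 in EFPrx1MSCLC against MSC, 3070 to 5732 and 1 to 3 in ha against EF, 0 to 1796 and 0 in hr against EF, and 4515 to 5123 and 1 to 3 in hr against ha. Changes of sign concerned only uncalled results: Wwtr1 in EFPrx1MSCLC against MSC ranged from -0.0098 to 0.79, Tead4 in hr against EF from -0.24 to 0.14, Vgll3 there from -0.32 to 0.17, Tead2 in ha against EF from -0.82 to 0.21, and Tead2 in hr against ha from -0.0823 to 0.95. Without uns-1, hr against EF was 0.0856 for Tead1, -0.17 for Tead2, 0.0445 for Tead3, 0.44 for Tead4 and 0.55 for Vgll3. Without uns-2, hr against ha was -0.10 for Tead1 and -0.58 for Vgll3.

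The last title number shows no pairing of libraries across hr, ha and EF, with correlations of deviations of -0.0694 to 0.0638. With it as a replicate block, 5232 genes were called in ha against EF, 322 in hr against EF and 4686 in hr against ha, and 3, 0 and 3 of the 7 genes. With 2 to 4 libraries per group and 8 to 82 counts of Tead4 in MSC, low levels are set by few reads.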

Other observations

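The EFPrx1MSCLC libraries of low Tead2 level, 219 and 225, were also low in Thy1, a mesenchymal surface antigen chosen after its values were seen. As CPM of library totals, Thy1 was at 14.2 and 25.1 in libraries 219 and 225 and at 1574 and 1632 in libraries 221 and 229, against 143.5 to 378.5 in MSC. Around Tead2 on chromosome 7, Gfy, Pth2, Ccdc155, Dkkl1, Slc6a16 and Slc6a21 were at or near 0 throughout. Trpm4, the nearest other gene with a clear level, was at 17.6 and 14.6 CPM in libraries 219 and 225 and at 7.76 and 8.15 CPM in libraries 221 and 229, against 16.1 to 23.4 CPM in MSC, and so did not share the low values of Tead2. Other mesenchymal markers went both ways. Eng ran against Thy1, at 404 and 615 in libraries 219 and 225 and 5.85 and 36.5 in libraries 221 and 229. In MSC Eng was at 18.6 to 80.1. The collagen genes Col1a1 and Col1a2 were low where Thy1 was low. Col1a1 was at 264 and 328 in libraries 219 and 225 and 1478 and 1257 in libraries 221 and 229. Col1a2 was at 82.35 and 611, against 2984 and 2328, in the same order.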
